A study of Mus musculus with 13 samples.

Results

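The transcriptome of interscapular brown adipose tissue (iBAT) was described in 5 control mice on a high-fat diet, which were chosen by the label WT (Axl-floxed Cre-) out of 13 mice in the series. These mice carried loxP sites around Axl, the gene of a receptor tyrosine kinase, and lacked the Cre transgene. Food was the high-fat diet, given at will, housing was at room temperature, and a tamoxifen round came every 3 weeks. The 8 knockout mice (iFAXLKO) had the same regime and are not compared here. The label WT therefore stands for floxed animals that were exposed to tamoxifen. There was 1 RNA sequencing library per mouse, made from a whole dissected depot, so each value is an average over all cell types of the piece of tissue taken.

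Brown fat burns lipid and glucose to produce heat. Its adipocytes are packed with mitochondria that contain UCP1, a carrier of the inner membrane that lets protons flow back without ATP synthesis. Noradrenaline, acting through the beta-3 adrenergic receptor and cyclic AMP, starts lipolysis and thereby the supply of fatty acids to these mitochondria. The tissue also makes new fatty acids from glucose, stores them as triglyceride and takes up lipid from the blood.

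The libraries held 24919126 to 32595083 counts, and 12243 genes, 11539 of them protein-coding, reached 1 CPM (the counts-per-million scale, set by the library total) in all 5. A count of 0 allowed up to 0.0920 to 0.1204 CPM, taken as 3 counts of a library's total. WT replicate 2 stood apart: its mean absolute log2 distance to the other libraries over genes was 0.405, against 0.240 to 0.272 in the other four. Its difference from the others ran with gene length. Genes with under 1 kb of exon sequence had a median log2 ratio of 0.55 to the mean of the other libraries, whereas genes over 8 kb had a median of -0.56. Over the 13105 genes with a mean of at least 1 CPM, 45.3% were lowest and 24.0% were highest in this library. Xist, a long RNA of the inactive X chromosome, read 513, 222, 497, 521 and 506 CPM in WT replicates 1 to 5, a 2.35-fold range that was 1.43-fold once each library's trend over exon length was removed, while Kdm5d, Uty, Ddx3y and Eif2s3y of the Y chromosome had no count in any of the 5 libraries.

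Mitochondrially encoded genes took 20.376%, 20.002%, 20.078%, 21.026% and 20.765% of the counts in WT replicates 1 to 5. The share was thus nearly the same in every mouse, with a mean of 20.45% ± 0.440 (SD, n = 5). It includes 6 mRNAs whose counts are uncertain, as given below. Protein-coding genes of both genomes together took 97.1% ± 0.294 (SD, n = 5). Mitochondrial ribosomal RNA held 0.996% ± 0.123 in these libraries, which were labelled as made from polyadenylated RNA. Genes annotated as long intergenic RNA held 1.04%, 0.780%, 1.09%, 1.52% and 1.09%. Gm42418 (chr17:39846958-39848788) alone supplied 65.9% of that class. Its counts were highest in WT replicate 4, at 11022 CPM, against 4915 to 7468 CPM in the others. Mir6236, annotated as a microRNA, was highest in the same mouse (610 against 185 to 357 CPM). What RNA the Gm42418 reads stem from was not tested. Binomial 95% intervals (Wilson) of class and marker list shares over 0.1% lay within 1.24% of their value, and cover counting error only.

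The 6 leading genes by mean CPM were all mitochondrial. They encode a subunit of cytochrome c oxidase, mt-Co1 (57518 ± 4760 CPM), cytochrome b of complex III, mt-Cytb (54620 ± 3206 CPM), and the complex I subunits mt-Nd1, mt-Nd2, mt-Nd4 and mt-Nd5 (12122 to 27235 CPM; SD, n = 5). All but mt-Nd5 kept a coefficient of variation (CV, the SD over the mean) under 0.1. For mt-Nd5 the libraries read 15502, 8925, 11031, 11731 and 13420 CPM, with WT replicate 2 lowest. Of the 13 mitochondrial mRNAs, 7 had mean levels of 734 to 57518 CPM and 6 had only 1.00 to 10.8 CPM. The low ones were mt-Co2, mt-Atp8, mt-Atp6, mt-Co3, mt-Nd3 and mt-Nd4l, which lie side by side on chrM:7013-10173. A nuclear copy of mitochondrial sequence, annotated as 7 pseudogenes from Gm28439 to Gm29216, lies on chr1:24611535-24616197, and none of these pseudogenes has a value in the tables used here. The counts of the 6 low mRNAs are therefore uncertain, and with them the mitochondrial share of the counts. The part of the nuclear copy in these mRNAs was not tested. Whether the 7 pseudogenes also cover parts of mt-Co1 and mt-Nd4, which flank the 6 low mRNAs, was not tested either.

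**Figure D1:**
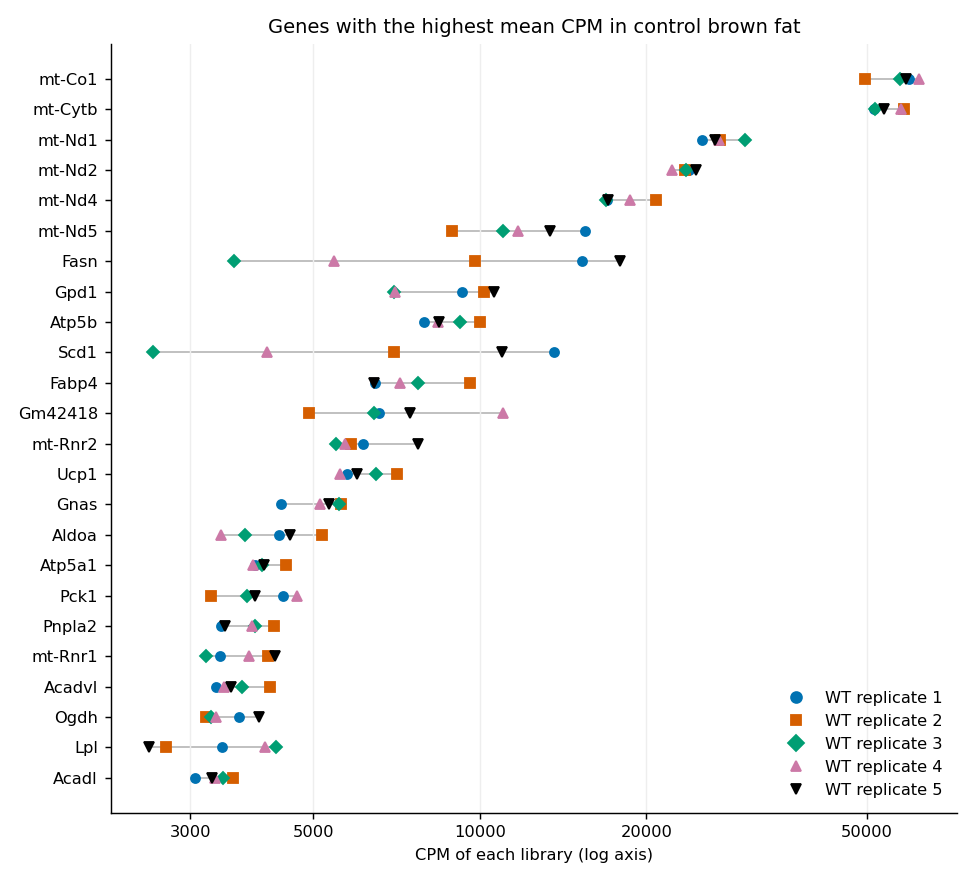
CPM of each library (log axis) for genes among the 25 with the highest mean CPM, where each symbol is 1 mouse and the line spans the lowest to the highest library. The first 5 mitochondrial genes stay close together between mice, while mt-Nd5 (8925 to 15502 CPM), Fasn (3596 to 17891 CPM) and Scd1 (2566 to 13621 CPM) spread more and Ucp1 (5597 to 7083 CPM) does not.

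Among nuclear genes, the leading ones belonged to lipid synthesis, the respiratory chain and lipid handling. Fasn, which encodes fatty acid synthase, had the highest mean at 10402 ± 6147 CPM (SD, n = 5), although it was not the leading nuclear gene in every library. Gpd1, which makes glycerol 3-phosphate for triglycerides and for the glycerophosphate shuttle, followed with 8821 ± 1727 CPM. Atp5b, the catalytic beta subunit of ATP synthase, had 8808 ± 810 CPM. The fatty acid desaturase gene Scd1 (7662 CPM) and the fatty acid carrier gene Fabp4 (7488 CPM) came next. Ucp1, the gene that defines the tissue, lay at chr8:83290352-83298452 in GRCm38 and read 5750, 7083, 6507, 5597 and 6014 CPM in WT replicates 1 to 5. These values lie close together, with a mean of 6190 ± 607 CPM (SD, n = 5) and a CV of 0.0981. Further leading genes were Ogdh of the tricarboxylic acid cycle, Gnas, which encodes the stimulatory G protein alpha subunit, Pck1 of glyceroneogenesis, the triglyceride lipase gene Pnpla2, the acyl-CoA dehydrogenase genes Acadvl and Acadl, and Lpl, the lipase that frees fatty acids from lipoproteins.

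A few genes accounted for much of the sequencing. The counts of 203 genes made up 50% of the total over the 5 libraries, and 491 genes did so when mitochondrial genes were left out. Per length, as TPM (transcripts-per-million, from the summed exon length), the order changed in favour of short mRNAs. Cox8b, a tissue-restricted subunit of cytochrome c oxidase, then had the highest mean of the nuclear protein-coding genes, at 8623 ± 2326 TPM. Ucp1 came next with 8528 ± 585 TPM (SD, n = 5). These means differ by less than the spread of Cox8b. Cox8b was the higher in WT replicates 2 and 3 (12306 and 9470 against 9198 and 8924 TPM). In WT replicates 1, 4 and 5 Ucp1 was the higher (8277, 7692 and 8549 against 6672, 7679 and 6990 TPM). Short genes read high in WT replicate 2, and Cox8b has 360 bases of exon. Gpd1 followed with 6732 ± 1358 TPM and Atp5b with 4684 ± 261 TPM. Fasn, a long mRNA, held only rank 40 on this scale, with 2169 ± 1336 TPM.

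The tissue label was checked against fixed marker lists. All 25 brown adipocyte genes and all 12 general adipocyte genes reached 1 CPM in every library. The brown list took 1.75%, 1.89%, 1.83%, 1.66% and 1.80% of the counts in WT replicates 1 to 5, a 1.14-fold range. This holds for the sum, which is led by Ucp1. Single members varied more, with a median CV of 0.206, against 0.141 over all genes with a mean of at least 10 CPM. Cidea, a lipid droplet protein of brown adipocytes, read 1476, 2081, 1709, 1641 and 1702 CPM. The transcriptional regulators of the lineage were far less abundant: Ebf2 had 50.6 ± 10.4 CPM, Ppargc1a 37.6 ± 8.28 CPM, Prdm16 23.0 ± 5.96 CPM, Zic1 9.67 ± 1.67 CPM and Lhx8 5.21 ± 0.756 CPM (SD, n = 5). Dio2, which activates thyroid hormone within the cell, read 82.4, 45.8, 95.7, 76.6 and 50.04 CPM. Ppara, the fatty acid receptor that drives oxidation genes, read 199, 47.2, 112, 131 and 190 CPM, lowest in WT replicate 2. Pparg, the adipogenic receptor, had 192 CPM with a CV of 0.0787.

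Several genes shared by all adipocytes were steady. The median CV of the 12 list members was 0.136, near the 0.141 of all genes with a mean of at least 10 CPM. Adiponectin (Adipoq) read 662, 776, 704, 714 and 591 CPM. The lipid droplet coat gene Plin1 (1231 ± 76.7 CPM), the lipase gene Lipe (1536 ± 105 CPM) and the droplet fusion gene Cidec (1060 ± 62.4 CPM; SD, n = 5) all had a CV under 0.07. Adipsin (Cfd), a secreted protease of the complement pathway, varied more, with 440, 887, 855, 1600 and 461 CPM. So did Retn (16.5, 36.7, 14.7, 23.9 and 15.1 CPM) and Lpl (2528 to 4292 CPM). WT replicate 4 was highest for Cfd and for Gpx3 (1931 to 3624 CPM), which encodes a secreted glutathione peroxidase.

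White adipocyte markers were low. The 11 genes found of this list took only 0.00620% to 0.0181% of the counts, and Hoxc10, Wt1 and Tcf21 had no count in any library. Hoxc9 had a count in WT replicate 3 only, at 0.0614 CPM, which is below the level that a count of 0 allows. Leptin (Lep), the satiety hormone, varied more than any other member over 1 CPM. It read 31.3, 56.5, 2.21, 2.73 and 23.6 CPM, a 25.6-fold range in which WT replicates 3 and 4 were both low.

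**Figure D2:**
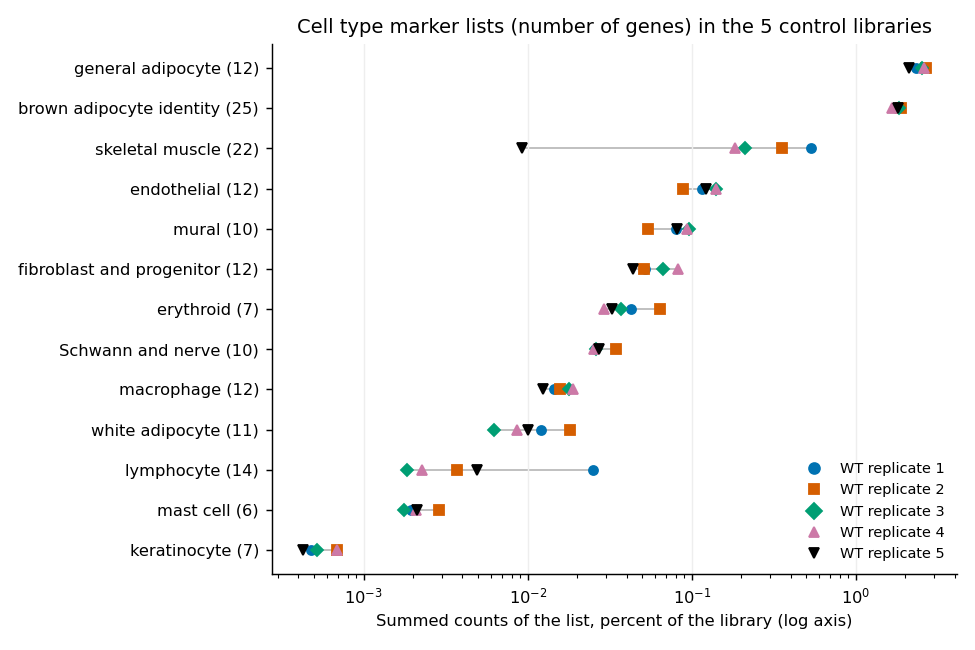
Summed counts of each cell type marker list as a percent of the library (log axis), with the number of genes in brackets and each symbol standing for 1 mouse. Both adipocyte lists lie within narrow ranges, the skeletal muscle list runs from 0.00922% in WT replicate 5 to 0.531% in WT replicate 1, and the lymphocyte list is highest in WT replicate 1 (0.0249%).

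Skeletal muscle transcripts differed widely between mice. The 22 muscle markers took 0.531%, 0.353%, 0.210%, 0.182% and 0.00922% of the counts in WT replicates 1 to 5, a 57.6-fold range with a CV of 0.762. The range rests on WT replicate 5 and was 2.91-fold without it, and the lymphocyte list had a higher CV (1.3005). The highest library was WT replicate 1 for 16 members and WT replicate 2 for 6, against 20.1% and 24.0% of all genes. Acta1, the actin of skeletal muscle fibres, read 867, 606, 307, 278 and 4.57 CPM. Atp2a1, the calcium pump of fast fibres, read 766, 438, 324, 246 and 4.17 CPM. For Myh4, the fast myosin heavy chain IIb, the values were 688, 448, 275, 318 and 4.25 CPM. Myh7, the slow myosin, read 145, 65.9, 19.8 and 6.35 CPM in WT replicates 1 to 4 and had no count in WT replicate 5. Fewer cells of a type and less RNA per cell cannot be told apart in such bulk samples.

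The makeup of the myosins also differed between mice. Of the summed TPM of Myh4, Myh1, Myh2 and Myh7, the fast chain Myh4 held 59.1%, 75.7%, 70.4%, 80.0% and 85.3%. The slow chain Myh7 held 8.69%, 7.77%, 3.54%, 1.11% and 0%, the last from a library with only 106 counts of Myh4. WT replicate 1 was therefore highest both in muscle transcripts and in the share of the slow chain. Not every gene on the list was near 0 in WT replicate 5: the myosin light chain gene Myl1 still had 43.7 CPM there, against 81.6 to 135 CPM in the others, and the tropomyosin gene Tpm2 had 11.1 CPM.

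Creatine and calcium cycling, discussed as a further source of heat in brown fat, uses enzymes that muscle also expresses. The 12 genes of creatine and calcium cycling took 0.142%, 0.0887%, 0.0920%, 0.0723% and 0.0465% of the counts, the same extremes as the muscle list. Per length, the muscle creatine kinase Ckm had 254, 227, 112, 86.8 and 1.79 TPM, while the brain-type enzyme Ckb had 51.9, 68.9, 127, 83.8 and 55.6 TPM. Ckb was thus the higher of the pair in WT replicates 3 and 5 and the lower in the other mice. The mitochondrial enzyme Ckmt2 read 34.2, 24.0, 11.3, 6.74 and 0.161 CPM. The part of muscle cells in these values was not tested.

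Immunoglobulin transcripts marked a single animal. The constant light chain gene Igkc read 77.5 CPM in WT replicate 1 and 0.467 to 2.77 CPM in the others. Ighm, the constant region of the IgM heavy chain, read 112, 28.8, 8.53, 12.8 and 39.3 CPM. Of 145 immunoglobulin gene segments with a count in any library, 144 had one in WT replicate 1 and 14 to 23 in each of the others. Jchain, which joins antibody units, and the leukocyte gene Ptprc were also highest there, at 9.42 CPM and 18.9 CPM. Of 14 lymphocyte markers, 8 had a mean of at least 1 CPM, and only 2 reached 1 CPM in every library. All 8 peaked in this mouse, against 20.1% of all genes. A high value in 1 mouse can lift a marker over the mean limit or give a segment its only count. The numbers of markers and segments therefore add nothing to the levels. WT replicate 1 thus held the most muscle and the most lymphocyte transcripts, and the list's 13.6-fold range dropped to 2.68-fold without it.

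Other cell types were present at steadier levels. The 12 endothelial markers took 0.0880% to 0.140%, the 10 mural cell markers 0.0540% to 0.0959% and the 12 macrophage markers 0.0123% to 0.0190% of the counts. The growth factor receptor gene Kdr, which marks capillaries, had 221 ± 52.1 CPM (SD, n = 5), lowest in WT replicate 2. Fibroblast and progenitor markers took 0.0435% to 0.0820%, with 7 of 12 highest in WT replicate 4, against 19.2% of all genes. The fibrillar collagen gene Col3a1 read 148, 137, 224, 284 and 127 CPM, and 9 of 12 collagen genes peaked in the same mouse. Haemoglobin transcripts were detected in all, with Hbb-bs at 150 to 334 CPM. The sympathetic nerve genes were at or near 0: Dbh had no count in any library, and Th reached at most 0.0639 CPM.

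De novo lipogenesis differed widely between mice. Its 13 genes took 3.85%, 2.57%, 1.11%, 1.54% and 4.05% of the counts in WT replicates 1 to 5, a 3.64-fold range. Elongases and desaturases, a list of 8 genes that includes Scd1, ranged 4.397-fold. The lipogenesis values divide the mice into a low pair, WT replicates 3 and 4, and 3 higher animals. Fasn (chr11:120805846-120824547) read 15283, 9787, 3596, 5450 and 17891 CPM. Acly, which supplies cytosolic acetyl-CoA from citrate, read 2185, 1449, 300, 466 and 2911 CPM, with the highest CV of the list (0.762). Scd1 (chr19:44394455-44407879), which makes monounsaturated fatty acids, read 13621, 7010, 2566, 4127 and 10988 CPM. The order of the mice was much the same for these genes. WT replicate 3 was the lowest library for 10 of the 13 members, against 7.17% of all genes, and WT replicate 4 the second lowest for 9 of them. By contrast, WT replicate 5 was the highest for 8 of the 13, against 9.88% of all genes.

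**Figure D3:**
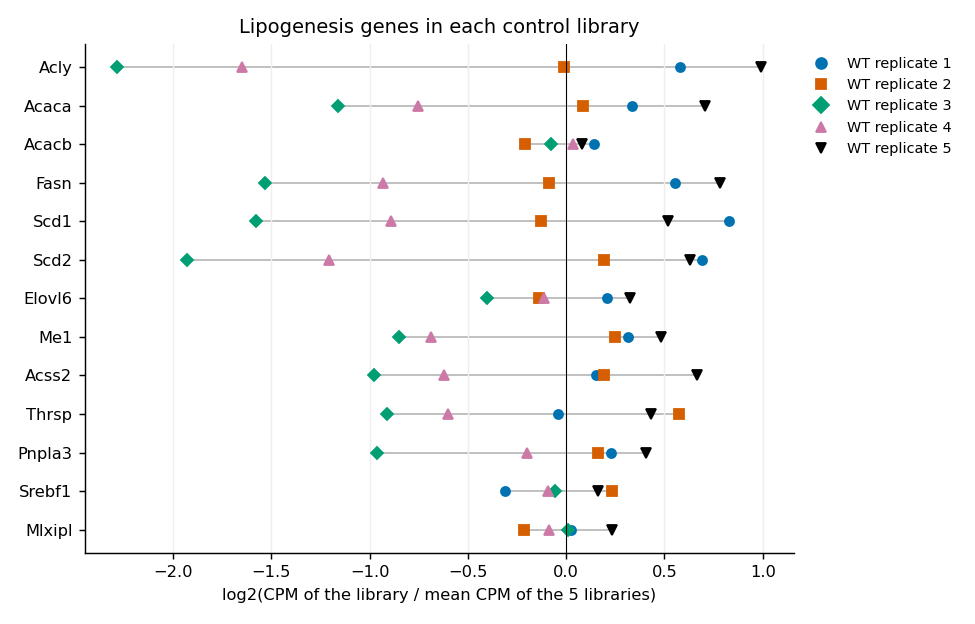
The log2 ratio of each library's CPM to the mean CPM of the 5 libraries for the 13 lipogenesis genes, where each symbol is 1 mouse. WT replicates 3 and 4 lie to the left for most enzymes (Acly 300 and 466 CPM against 1449 to 2911 CPM in the others), while Acacb, Srebf1 and Mlxipl stay near 0.

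The remaining members followed to different degrees. Scd2, a second desaturase gene, ranged 6.15-fold (50.04 to 308 CPM). Acaca, the cytosolic acetyl-CoA carboxylase that makes malonyl-CoA for synthesis, read 1132, 952, 402, 533 and 1465 CPM. Thrsp, a regulator of lipogenic enzymes, peaked in WT replicate 2 (994 to 2783 CPM), and Elovl6, which elongates palmitate, ranged only 1.66-fold. The malic enzyme gene Me1, the acetyl-CoA synthetase gene Acss2 and Pnpla3 ranged 2.52-, 3.12- and 2.58-fold. By contrast, the mitochondrial carboxylase gene Acacb, whose product restrains fatty acid entry into mitochondria, was steady at 2003, 1573, 1725, 1866 and 1924 CPM. The transcription factor genes Srebf1 and Mlxipl ranged 1.46- and 1.36-fold, less than the other members except Acacb. Srebf1 read 144, 211, 173, 169 and 201 CPM. Its CV of 0.148 was near the median of 0.141 over genes with a mean of at least 10 CPM. Mlxipl, which encodes the carbohydrate sensor ChREBP, had a CV of 0.116.

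Genes outside the list had the same low pair. The fructose transporter gene Slc2a5 read 19.2, 18.3, 0.675, 1.91 and 21.6 CPM, and Sorcs2, a sorting receptor gene, read 30.1, 18.0, 1.90, 3.35 and 64.3 CPM. Leptin, given above, was also low in both. The opposite order was found for Sgk2, a serine/threonine kinase gene, with 5.46, 5.30, 57.0, 22.5 and 3.21 CPM. It was shared by the peptide transporter gene Slc15a2 (7.67, 4.76, 25.4, 14.02 and 0.482 CPM). Slc2a5 and Slc15a2 were picked after their values were seen. The lipogenesis range was 3.43-fold once each library's trend over exon length was removed.

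Promoter sequence is shown for this group because most of its enzyme genes had the same low pair of mice, and for a steady member beside them. RefSeq promoters (GRCm38.p6, 250 bases before to 50 after each start) were matched for 11 of the 13 genes, with no entry for Scd1 and Scd2. The letters CCAAT, bound by the factor NF-Y among others, were searched on both strands within the 250 bases before the start, a motif chosen after the values were seen. They occurred in 8 of the 11 genes (72.7%), against 37.5% of the 27025 genes of the table. The 8 were all 3 genes that ranged least, Acacb, Srebf1 and Mlxipl, and 5 of the 8 others matched, namely Fasn, Thrsp, Acss2, Me1 and Pnpla3. Acly, Acaca and Elovl6 held none in this window. The last 100 bases before the RefSeq start are printed 5′ to 3′ on the gene's strand for 5 genes. CCAAT or its reverse complement ATTGG is in capitals. For Acacb and Thrsp the stretch lies inside the annotated gene (chr5:114146535-114250761 and chr7:97412938-97417730), and for Acss2 it lies almost wholly inside. Which starts are used in this tissue was not tested. The stretches are chr11:120824548-120824647 (minus strand) for Fasn, chr7:97417551-97417650 (minus) for Thrsp, chr2:155517943-155518042 (plus) for Acss2, chr15:84167716-84167815 (plus) for Pnpla3 and chr5:114165418-114165517 (plus) for Acacb.
Fasn: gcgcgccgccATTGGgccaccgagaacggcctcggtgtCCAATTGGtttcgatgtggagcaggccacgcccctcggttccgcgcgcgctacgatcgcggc
Thrsp: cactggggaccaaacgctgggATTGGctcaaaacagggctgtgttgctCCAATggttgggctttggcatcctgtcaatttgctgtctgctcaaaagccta
Acss2: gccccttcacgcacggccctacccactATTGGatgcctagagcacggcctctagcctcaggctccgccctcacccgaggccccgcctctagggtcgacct
Pnpla3: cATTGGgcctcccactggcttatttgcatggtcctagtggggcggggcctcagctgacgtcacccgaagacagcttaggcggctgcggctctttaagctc
Acacb: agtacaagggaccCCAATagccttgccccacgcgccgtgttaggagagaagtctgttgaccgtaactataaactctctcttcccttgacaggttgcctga
Fasn held 3 matches, beginning 90, 62 and 59 bases before the start, of which the last pair overlaps and reads on both strands. Thrsp held a pair, beginning 79 and 52 bases before its start. A match is a description of these letters and not a measured binding site.

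Fuel oxidation and lipid breakdown ranged less between mice than de novo lipogenesis, as did triglyceride synthesis (1.25-fold) and glucose uptake and glycolysis (1.47-fold). The 17 genes of the tricarboxylic acid cycle ranged 1.096-fold as a group (2.86% to 3.14% of the counts). Idh3a, a subunit of the cycle's NAD-dependent isocitrate dehydrogenase, read 1748, 1723, 1755, 1664 and 1752 CPM. Dld, the shared E3 subunit of the 2-oxoacid dehydrogenases, had 910 ± 19.9 CPM (SD, n = 5). The 19 genes of mitochondrial fatty acid oxidation took 2.69% to 3.21% of the counts, and the medium-chain dehydrogenase gene Acadm had a CV of 0.0273. Lipid storage and lipolysis (14 genes) ranged 1.13-fold, branched-chain amino acid breakdown (14 genes) 1.13-fold and the SLC25 carriers of the inner mitochondrial membrane (47 genes) 1.11-fold. The 20 genes of adrenergic and cyclic AMP signalling ranged 1.14-fold, although single members varied more, such as the adenylyl cyclase gene Adcy3 with 365, 232, 573, 472 and 262 CPM. After removal of the trend over exon length, the range was 1.48-fold for this signalling list, 1.202-fold for the tricarboxylic acid cycle and 1.22-fold for fatty acid oxidation, with WT replicate 2 highest in all of these.

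Nuclear subunits of the respiratory chain and ribosomal proteins, many of them encoded by short mRNAs, peaked in WT replicate 2. This held for 36 of 37 complex I subunits, 9 of 9 complex III subunits, 13 of 15 complex IV subunits and 17 of 18 ATP synthase subunits. It also held for 77 of 81 cytosolic and 76 of 78 mitochondrial ribosomal proteins, compared with 24.0% of all genes. Complex I took 1.26%, 1.97%, 1.55%, 1.46% and 1.35% of the counts, a 1.56-fold range. Cox8b followed with 1020, 2085, 1520, 1230 and 1082 CPM. After removal of the trend over exon length the range was 1.31-fold for complex I, 1.27-fold for complex IV against 1.77-fold before, and 1.35-fold for cytosolic ribosomal proteins against 1.61-fold. The part of exon length in the remaining differences was not tested.

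Immediate early and interferon-stimulated genes were highest in WT replicate 3. Of the 16 immediate early genes, 14 had a mean of at least 1 CPM, and 13 of these peaked in that mouse, against 26.8% of all genes. Fos, an early transcription factor of stimulated cells, read 3.45, 1.99, 13.4, 1.32 and 0.762 CPM. Dusp1, a phosphatase gene of the same class, read 28.3, 38.5, 57.3, 23.5 and 37.0 CPM. Likewise, 11 of the 12 interferon-stimulated genes measured at 1 CPM peaked there, among them the transcription factor gene Irf7 with 6.48, 8.42, 23.3, 12.7 and 7.83 CPM. Rsad2, an antiviral enzyme gene, read 16.2, 14.4, 39.9, 24.6 and 15.01 CPM. WT replicate 3 was also the library with the lowest lipogenesis share. Whether these differences belong together was not tested.

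Members of gene families were compared per length within each library. Ucp1 had 8528 ± 585 TPM, against 114 ± 36.3 TPM for Ucp3 and 16.2 ± 1.31 TPM for Ucp2, a carrier that is widespread in other tissues. The mean log2 ratio of Ucp1 to Ucp3 was 6.28 ± 0.54 (SD, n = 5), or 77.7-fold. The ratio to Ucp2 was 526-fold, and 300-fold with the longest transcript as gene length. Adrb3, the beta-3 adrenergic receptor of adipocytes, had 374 ± 31.1 TPM and exceeded Adrb1 35.8-fold. Of the carnitine palmitoyltransferases that admit fatty acids to mitochondria, the muscle-type Cpt1b exceeded the liver-type Cpt1a 146-fold, and 96.3-fold by the longest transcript. The insulin-responsive glucose transporter gene Slc2a4 exceeded Slc2a1 44.8-fold. These orders held in all 5 libraries.

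**Figure D4:**
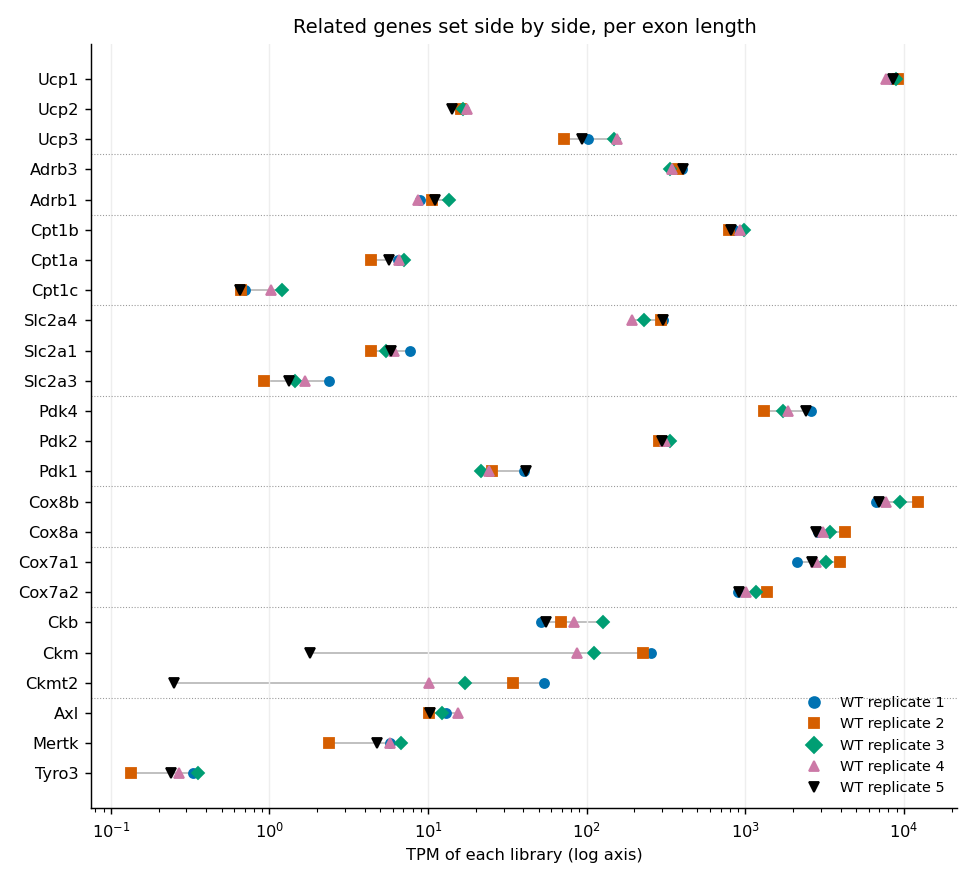
TPM of each library (log axis) for members of gene families, separated by dotted lines, with each symbol standing for 1 mouse. Ucp1, Adrb3, Cpt1b and Slc2a4 lie above their relatives in all 5 mice, whereas Ckm (1.79 to 254 TPM) crosses the level of Ckb (51.9 to 127 TPM).

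Other families had a smaller gap. Pdk4, a kinase that shuts pyruvate dehydrogenase in the fasted state, exceeded Pdk2 by 2.63 ± 0.37 on the log2 scale (SD, n = 5). The brown fat and muscle isoform genes Cox8b and Cox7a1 exceeded the general Cox8a and Cox7a2 by 1.37 ± 0.13 and 1.44 ± 0.13. Dgat2 exceeded Dgat1, the other enzyme of the last step of triglyceride synthesis, 8.31-fold. Acacb exceeded Acaca by 2.00 ± 0.74, from 1.22 in WT replicate 5 to 2.93 in WT replicate 3. Scd1 exceeded Scd2 by 5.56 ± 0.29, a narrow range although both genes spread widely between mice. For the lactate dehydrogenases Ldhb and Ldha the mean difference was -0.01 ± 0.23, with no common direction between mice. Perilipin 1 exceeded perilipin 2 in all 5 libraries, but only 1.16-fold.

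The gene that the series is about was expressed in control tissue at a modest level. Axl (chr7:25757273-25788705) read 27.7, 24.2, 27.4, 34.5 and 22.4 CPM in WT replicates 1 to 5, with a mean of 27.2 ± 4.64 CPM (SD, n = 5) and rank 5067 of all genes. Its value was highest in WT replicate 4, in which fibroblast markers and collagens were also highest. The part of these cells in the Axl level was not tested. Gas6, the ligand of the receptor family, read 41.9, 49.3, 45.1, 65.7 and 37.4 CPM, with the same mouse highest. Of the related receptors, Axl had 12.2 ± 2.14 TPM, Mertk 5.10 ± 1.67 TPM and Tyro3 0.265 ± 0.0865 TPM. Axl exceeded Mertk in all 5 libraries, by 1.33 ± 0.47 on the log2 scale. Pros1, the other ligand, had 17.2 ± 4.07 CPM.

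The spread between the libraries, 1 per mouse, was small for most genes. Over 8499 genes with a mean of at least 10 CPM, the median CV was 0.141, against 0.0325 from counting alone, and the 5th and 95th percentiles were 0.0498 and 0.304. Without WT replicate 2 the median CV was 0.0867. Only 104 genes (1.22%) had a CV over 0.5. Of the 100 protein-coding genes among them, 21 were on the muscle list, 63 were lowest in WT replicate 5 and 55 were highest in WT replicate 1, against 22.0% and 20.1% of all genes. The first places belonged to sarcomere genes such as Myh2 (143, 38.1, 27.3, 11.9 and 0.281 CPM), Myh7 and Ttn, which encodes titin (414, 87.6, 112, 94.3 and 1.48 CPM). The non-muscle genes Sgk2, Sorcs2 and Lep were among the first 20 as well.

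The steadiest genes were taken among those with a mean of at least 100 CPM. Pomgnt1, which encodes a glycosyltransferase of the Golgi, read 101, 101, 99.6, 101 and 102 CPM, with a CV of 0.00862 against 0.0189 from counting alone. The reticulon gene Rtn3 had a CV of 0.0174, Cdip1 0.0203 and the zinc transporter gene Slc30a9 0.0218. The tricarboxylic acid cycle genes Dld (0.0219) and Idh3a (0.0221) stood beside them, against 0.00630 and 0.00457 from counting alone. Pex19, a chaperone for peroxisomal membrane proteins, was likewise steady at 219 ± 5.17 CPM (SD, n = 5).

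**Figure D5:**
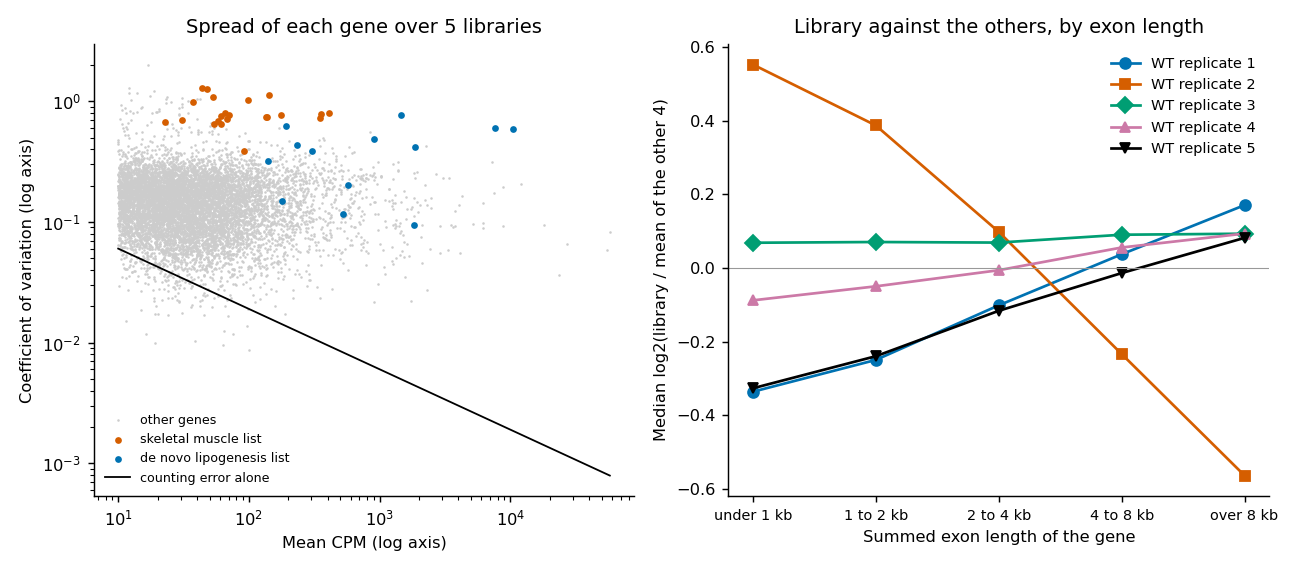
Left, CV of each gene over the 5 libraries against its mean CPM (both log axes), with the line giving counting error alone, and right, the median log2 ratio of each library to the mean of the other four in bins of summed exon length. Muscle genes lie near the top left and lipogenesis genes toward the top right, and WT replicate 2 runs from 0.55 for genes under 1 kb to -0.56 for genes over 8 kb.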

How the data were processed

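Raw read counts per Ensembl gene, which the authors deposited as 1 table per library, were used without change (counts, not normalized). According to the submitters' processing notes bcl2fastq 2.20, fastp 0.20.0, STAR 2.7.4a and DESeq2 were used with build GRCm38.p6, whereas the study's methods name Trim Galore and hisat2. The counting tool and its strand setting were not given in the sources used here, so overlapping and antisense genes cannot be told apart. The labels name poly-A enrichment and the methods rRNA depletion. Of 42416 identifiers, 42347 were matched to GENCODE M21 for symbols, classes and coordinates, and 69 were not.

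Counts were scaled to CPM by the library total (24919126 to 32595083) and, for comparisons between genes, to TPM by summed exon length. Means, SD, CV and list sums were computed over 5 mice in Python 3.11.15 (numpy 2.4.6, pandas 2.3.3, matplotlib 3.10.9), and the scripts were tested on simulated data. A single group is described, so no test was made. SDs measure the spread between libraries, 1 per mouse, and so include dissection and library preparation. Scaling factors from edgeR 4.0.16 (TMM) and DESeq2 1.42.0 size factors (R 4.3.3) were alternatives, besides count minimums, another gene length and leaving out each mouse. TMM shifted WT replicate 2 by 0.12 and WT replicate 3 by -0.09 on the log2 scale relative to CPM. The correction for exon length was chosen after seeing the data. Genes named were the leading 25 by CPM and by TPM, the 20 most variable (mean of at least 10 CPM) and 15 steadiest protein-coding genes (at least 100 CPM), members of adipocyte, TAM receptor, sex-linked, non-polyadenylated and related-gene sets, and of other lists the 6 most abundant members, the most variable and those at 0. Slc2a5, Slc15a2, the low mitochondrial mRNAs and the less abundant lipogenesis members fall outside this rule and were chosen after their values were seen. The mice and gene lists were chosen with earlier results of these data known. The iFAXLKO libraries were not analysed here, and some genes that the rule allows are not reported here.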

Additional observations from a re-analysis of the deposited data

Results flagged for a closer look

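Of 177 library shares and gene levels examined, 14 (7.91%) had a library whose gap to the nearest other exceeded Dixon's 95% limit of 0.71 of the range, and chance alone flags about 1 in 20 groups. In WT replicate 1 these were the share of immunoglobulin gene segments (0.0316% against a median of 0.00239% in the other four), the lymphocyte list (0.0249% against 0.00299%), Igkc (77.5 against 1.79 CPM), Myh2 (143 against 19.6 CPM) and Ttn (414 against 91.0 CPM). In WT replicate 2 they were the Schwann cell and nerve list (0.0343% against 0.0259%), proteasome subunits (0.322% against 0.256%), insulin signalling (0.0946% against 0.122%, but 0.122% and no longer the lowest after removal of the trend over exon length), genes of the annotation class TEC (0.0800% against 0.0974%), Xist (222 against 509 CPM) and the sex-linked list that it fills (0.0222% against 0.0509%, and 0.0339% after that removal). After the same removal the Schwann cell and nerve list held 0.0299% in WT replicate 2, against 0.0257% to 0.0286% in the others. Proteasome subunits then held 0.309%, against 0.256% to 0.271%. Fos stood apart in WT replicate 3 (13.4 against 1.66 CPM). Rn7sk, a small nuclear RNA without a poly-A tail, stood apart in WT replicate 4 (6.00 against 1.93 CPM) together with the list of non-polyadenylated RNA genes (0.00107% against 0.000332%). No value stood apart by this measure in WT replicate 5.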

How the results depend on the processing

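No paired analysis was possible because a single group is described and the results come from no test. The number of genes at 1 CPM in all libraries stayed between 9493 and 15139 under other minimums and scaling factors. The number of genes holding 50% of the counts was 203, and 491 for nuclear genes alone. The mitochondrial share was 20.45%, and 19.96% of protein-coding counts alone. Without each mouse in turn, the median CV ran from 0.0867 (without WT replicate 2) to 0.151 (without WT replicate 4). The order of related genes reversed for 3 pairs whose mean ratio was near 0, of which the last pair listed and Ckb against Ckm differed strongly and in both directions between mice. Ldhb against Ldha (-0.01, log2) ran from -0.082 (without WT replicate 3) to 0.045 (without WT replicate 5), with 0.037 without WT replicate 1. Ckb against Ckm (0.22) ran from -0.97 (without WT replicate 5) to 0.84 (without WT replicate 1). Atp2a2 against Atp2a1 (-0.01) became 0.088 with the longest transcript, 0.46, 0.42, 0.22 and 0.19 without WT replicates 1, 2, 3 and 4, and -1.36 without WT replicate 5. With the longest transcript as gene length, 21 of the log2 ratios moved by more than their SD. Leaving mitochondrial counts out of the library total moved the mean CPM of 64 genes by more than their SD. The range of the skeletal muscle list was 38.3-fold without WT replicate 1 and 2.91-fold without WT replicate 5, that of the non-polyadenylated genes 1.46-fold without WT replicate 4. With 3 counts as the limit, levels under 0.1204 CPM cannot be told from 0.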
